A study of Mus musculus with 16 samples.

Results

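The cytosolic ribosomal proteins build the particle that makes nearly all protein of the cell, and 60 of their genes were on the array. They were taken by gene symbol (*Rpl* or *Rps* with a number, the stalk genes *Rplp0*, *Rplp1* and *Rplp2*, and *Rpsa*). This rule uses no measured value, but the family was chosen with earlier results of these data known. Of the 25697 probes, 77 carried one of these symbols, for 60 of 16593 named genes. Of the 60 genes, 37 belong to the large subunit, 3 of them to its stalk, and 23 to the small subunit. The mitochondrial ribosomal proteins, encoded by a separate gene family, were not included.

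The RNA came from keratinocytes, the cells of the epidermis, which were harvested from pups on postnatal day 1 of the FVBN strain. Ts cells came from Ts1Rhr mice, which carry an extra copy of a segment of mouse chromosome 16 and had been backcrossed from C57BL/6J onto FVB/N, and WT cells came from euploid mice. Ts-TPA and WT-TPA cells had received 0.2 μM TPA for 12 h, whereas Ts-NT and WT-NT cells were untreated. TPA, a phorbol ester, switches on protein kinase C and is a classic promoter of skin tumors. Each of the 4 groups had 4 arrays, and per the study's methods each keratinocyte line came from 1 pup, so that 8 cultures gave 16 arrays. The growth medium was the same for both genotypes, and the cultures held isolated cells, not skin. No member gene lies in the Ts1Rhr segment (0 of 60), and 3 lie elsewhere on chromosome 16 (*Rpl24*, *Rpl35a* and *Rpl39l*), so that the extra segment adds no copy of a member. Copy number itself was not measured. *Rpl10*, *Rpl36a*, *Rpl39* and *Rps4x* lie on the X chromosome, and the sex of the pups was not among the sample facts used here.

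A ribosome consists of a small subunit, which reads the mRNA, and a large subunit, which joins the amino acids. Each subunit holds its own set of ribosomal proteins around ribosomal RNA, and most of these proteins are needed in equal numbers. Vertebrate ribosomal protein mRNAs typically begin with a C followed by a stretch of pyrimidines, the terminal oligopyrimidine start, through which mTOR signaling and Larp1 set how strongly they are translated. That control acts on translation, and an array of total RNA measures only mRNA level.

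This start is the sequence feature that the family is known for. Pyrimidine stretches near annotated starts were therefore read from the RefSeq promoter table (GRCm38.p6) for some members on which the results below turn. Only members with such a stretch could be printed, so that these lines do not represent all members. *Rpl36a* and *Rpl10*, also named below, had either no such stretch or no entry. Capitals mark the stretch of C and T that begins with C nearest to the annotated start, and each line runs 5′ to 3′.
Rpl35a: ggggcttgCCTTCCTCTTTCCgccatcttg
Rpl34: ctgacgtaCTTCCTgtccggcgccgtcaca
Rpl19: ggcttgggCTCTCCCCTTCgcagataatgg
Rpl13a: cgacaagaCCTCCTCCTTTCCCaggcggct
Rpl31: cctcctcgCCTCCCCgtgacccggaagttg
Rpl35: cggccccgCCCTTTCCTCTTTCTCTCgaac
Rps9: cgccttgtCTCTCTTTgtctcgggcctgag
Rps6: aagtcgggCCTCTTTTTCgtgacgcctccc
These stretches hold 6 bases in *Rpl34*, 7 in *Rpl31*, 8 in *Rps9*, 10 in *Rps6*, 11 in *Rpl19*, 13 in *Rpl35a*, 14 in *Rpl13a* and 18 in *Rpl35*. Relative to the annotated start they began at -11 in *Rpl19*, -7 in *Rpl35*, -5 in *Rpl35a* and *Rps9*, and -4 in *Rpl31*. In *Rps6*, *Rpl34* and *Rpl13a* they began at -1, 1 and 2. Whether an mRNA begins with its marked stretch was not tested. They were read at chr16:33056469-33056498 for *Rpl35a*, chr3:130730376-130730405 for *Rpl34*, chr11:98026905-98026934 for *Rpl19*, chr7:45128722-45128751 for *Rpl13a*, chr1:39367839-39367868 for *Rpl31*, chr2:39005117-39005146 for *Rpl35*, chr7:3704028-3704057 for *Rps9* and chr4:86857347-86857376 for *Rps6*, on the minus strand for *Rpl34*, *Rpl13a*, *Rpl35* and *Rps6* and on the plus strand for the others. The table held 51 of the 60 members. A C followed by at least 5 further pyrimidines within 20 bases of an annotated start was present in 34 of these 51 members (66.7%) and in 32.8% of all 27025 genes of the table. The letters CCGGAAG, on either strand and anywhere from 250 bases before to 50 bases after a start, were present in 21 of 51 members (41.2%) and in 9.93% of all genes. The reverse complement of these letters contains CTTCC and can overlap a pyrimidine stretch. Both counts are descriptions of letters, and none of the array measurements bears on them.

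Ribosomal protein mRNAs were among the brightest signals of the array. A probe counted as measured when, in Ts or in WT, 4 or more of the 8 arrays gave it a detection p of 0.01 or less, and 61 of 77 member probes, for 52 of 60 genes, were measured (8317 of 25697 probes and 6063 genes over the whole array). Of the measured member genes, 31 belong to the large and 21 to the small subunit, and 50 of 52 had a probe detected on all 16 arrays. The exceptions were *Rpl21*, detected on 6 arrays, and *Rps15a*, detected on 7. Of the 52 genes, 43 lay in the highest 10% of mean signal, and the highest raw intensity of any member, 53220, belonged to *Rplp1*, a stalk protein.

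The 8 genes that were not measured were *Rpl14*, *Rpl17*, *Rpl39l*, *Rpl3l*, *Rpl6*, *Rplp2*, *Rps23* and *Rpsa*. *Rpl3l*, known as a striated muscle form of *Rpl3*, and *Rpl39l*, a testis-rich form of *Rpl39*, were detected on no array. *Rpl14*, *Rpl17*, *Rpl6*, *Rplp2*, *Rps23* and both probes of *Rpsa* were also detected on no array, although their proteins belong to every cytosolic ribosome. In 6 genes a measured probe stood beside an undetected or nearly undetected one. In *Rps19*, 1 probe was detected on all arrays and the other on none, with raw intensities of 138 to 288. These values are therefore those of probes, and a probe at background gives no level for its gene. Further, 47 members have pseudogenes named after them, 256 in all, and signal from such copies was not separated from that of the gene.

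Arrays differed in ways that are not about these genes. The raw median over all probes was 228 to 275 in Ts-TPA, 198 to 231 in Ts-NT, 160 to 172 in WT-TPA and 156 to 170 in WT-NT, so that the background was higher on every Ts array than on every WT array. Detected probes numbered 6371 to 7928 in Ts-TPA, 6746 to 7822 in Ts-NT, 6950 to 8688 in WT-TPA and 8031 to 8876 in WT-NT. Among keratinocyte markers, 9 of 11 were measured, with *Krt5*, *Krt14* and *Trp63* detected on all 16 arrays and *Krt15* and *Krt1* on none. Among fibroblast markers, 6 of 11 were measured, and their summed raw intensity was 3313 to 4398 in Ts-TPA, 3183 to 3961 in Ts-NT, 2331 to 2990 in WT-TPA and 2301 to 2920 in WT-NT. *Pdgfra* and *Lum* were detected on no array, *Col1a2* on 1 and *Col1a1* on 2. The melanocyte markers *Dct* and *Tyrp1* were detected on all 16 arrays, and 0 of 4 immune and 0 of 3 endothelial markers were measured. The summed raw intensity of the 4 undetected immune markers was also higher in Ts, at 795 to 1049 in Ts-TPA, 759 to 902 in Ts-NT, 596 to 640 in WT-TPA and 591 to 675 in WT-NT, as was the raw median of all probes. In RNA from whole cultures, fewer cells of a type and less RNA per cell cannot be told apart.

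All values below are on a log2 scale after variance stabilization (an arsinh scale that runs close to log2 for bright probes), and a gene is represented by its brightest measured probe. Because the fitted difference of the median gene was not 0, namely -0.15 for Ts-NT vs WT-NT, -0.20 for Ts-TPA vs WT-TPA, -0.10 for TPA in Ts, -0.06 for TPA in WT and -0.08 for TPA over 8 cultures, differences are given relative to that median unless called fitted. The limma test itself was made on the fitted difference, adjusted by Benjamini-Hochberg over all 8317 measured probes, and 1 probe with an adjusted p under 0.05 was enough to call its gene. Overlap of groups and direction by culture were also read from values with the median of all genes left in. Errors of differences are standard errors.

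**Figure D1:**
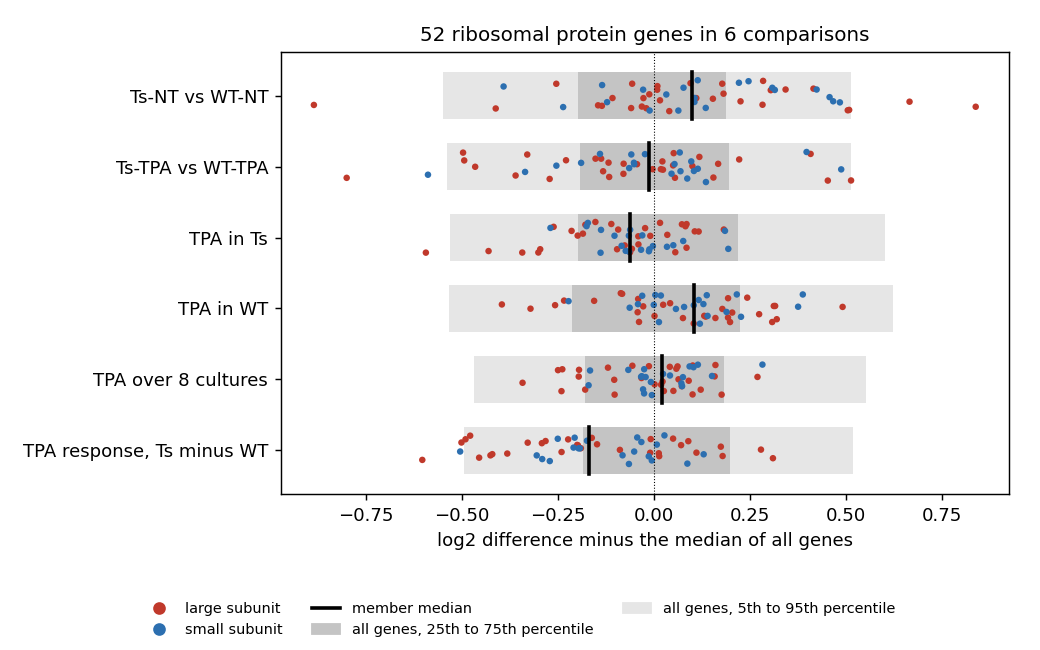
Log2 difference of each of the 52 measured ribosomal protein genes relative to the median of all 6063 genes (x axis) in 6 comparisons (rows); red points are large and blue points small subunit genes, the black bar is the member median, and grey bands span the 25th to 75th and 5th to 95th percentiles of all genes. Member medians lie between -0.17 and 0.10, and most members lie inside the outer band, with exceptions such as *Rpl36a* at -0.89 in Ts-NT vs WT-NT.

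In untreated cells, the question was whether the trisomic segment, which holds no ribosomal protein gene, went with different levels of ribosomal protein genes elsewhere. The member median of Ts-NT against WT-NT was 0.10, with 34 of 52 genes above the median of all genes, and the median was 0.04 over the 31 large subunit genes and 0.11 over the 21 small subunit genes. The 564 other genes of the highest 10% of signal had a median of -0.05. No member was called (0 of 52), and 4 of 6063 genes were called over the whole array (0.066%). At an unadjusted p below 0.05, 4 members were higher and 5 lower in Ts-NT, against 2.44% and 12.9% of all genes. This split depended on the scaling, since after quantile normalization, which brought the median gene to -0.0017, 16 members were higher and 2 lower, against 6% and 6.23% of all genes. The median over members stayed positive with the 3 other scalings tried, but was -0.021 without the detection filter.

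*Rpl36a*, an X-linked gene of the large subunit, had the lowest difference. Its values were 10.26, 10.14, 9.78 and 9.08 in Ts-NT and 10.81, 11.07, 10.65 and 10.89 in WT-NT. Every Ts-NT array was below every WT-NT array. The difference was -0.89 ± 0.27, with a limma adjusted p of 0.154. With the replicate number as a block the adjusted p was 0.0423. *Rpl36al*, its autosomal relative, differed by -0.15 ± 0.18 (adjusted p = 0.506).

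*Rpl35a*, a large subunit gene whose human counterpart is mutated in Diamond-Blackfan anemia, had the highest difference by brightest probe. Its values were 12.70, 12.70, 13.48 and 12.53 in Ts-NT and 12.64, 12.01, 12.06 and 11.94 in WT-NT. WT-NT replicate 1 reached into the range of the Ts-NT arrays, whereas the other WT-NT arrays lay below all of them. The difference was 0.84 ± 0.22 (adjusted p = 0.22), although *Rpl35a* is outside the triplicated segment. *Rpl24*, a large subunit gene on the same chromosome, differed by 0.15 ± 0.19 (adjusted p = 0.9997).

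*Rpl19*, also of the large subunit, had 11.34, 10.94, 11.25 and 11.04 in Ts-NT and 11.06, 10.35, 10.48 and 10.62 in WT-NT. WT-NT replicate 1 again overlapped with the Ts-NT arrays. The difference was 0.67 ± 0.20 (adjusted p = 0.308). *Rpl5*, which carries the smallest ribosomal RNA into the large subunit and binds Mdm2 when free, differed by -0.41 ± 0.22 (adjusted p = 0.309), and its groups overlapped. *Rpl4*, whose protein lines the exit tunnel for the growing chain, was the only member besides *Rpl36a* whose brightest probe was lower on every Ts-NT array (9.42, 9.56, 9.33 and 9.53) than on every WT-NT array (10.06, 9.61, 10.001 and 9.79), with a difference of -0.25 ± 0.20. By that probe, 2 members did not overlap with Ts-NT lower and 0 with Ts-NT higher, against 7.26% and 1.47% of all genes. These counts use values from which the median of all genes, -0.15, was not removed. The gap of *Rpl4*, 9.56 against 9.61, was smaller than that shift.

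In the small subunit, *Rps9*, a protein near the mRNA entry site, showed a large difference on 1 of its probes only. Its dimmer probe gave 12.62, 12.62, 12.44 and 12.27 in Ts-NT and 11.90, 11.55, 11.29 and 11.53 in WT-NT, so that the groups did not overlap. Its difference was 1.07 ± 0.21, the lowest adjusted p of any member (0.101). The brighter probe gave 12.37, 11.98, 12.38 and 12.05 in Ts-NT and 12.35, 12.14, 11.77 and 11.87 in WT-NT, and here the groups overlapped, with a difference of 0.31 ± 0.19 (adjusted p = 0.756). For the dimmer probe the adjusted p was 0.0267 after quantile normalization, 0.0244 on the authors' values and 0.0371 with the replicate block, but 0.1001 with neqc and 0.129 with culture as a random block.

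*Rps6*, the substrate of S6 kinase, had 11.98, 12.34, 12.57 and 12.13 in Ts-NT and 12.72, 12.68, 12.53 and 12.65 in WT-NT. The groups overlapped by Ts-NT replicate 3 alone, and the difference was -0.24 ± 0.18 (adjusted p = 0.39). *Rps25*, a protein needed for initiation at some viral internal entry sites, differed by -0.39 ± 0.25. *Rps14* and *Rps19*, whose human counterparts are lost in the 5q- syndrome and mutated in Diamond-Blackfan anemia, differed by 0.42 ± 0.16 and 0.06 ± 0.18, and *Rps27l*, a p53-responsive relative of *Rps27*, by 0.22 ± 0.19. All 4 were overlapping between genotypes.

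The stalk recruits the elongation factors, and *Rplp0* is the scaffold on which *Rplp1* and *Rplp2* sit. *Rplp1* differed by -0.06 ± 0.18. *Rplp0* differed by 0.18 ± 0.19 on its brighter probe and by 0.64 ± 0.22 on its dimmer probe (adjusted p = 0.972 and 0.375). Probes of 1 gene thus disagreed in size here as in *Rps9*, and in *Rpl23*, a protein of the subunit interface, they disagreed in direction, at -0.15, 0.35 and -0.69 over its 3 measured probes, the last with an adjusted p of 0.293.

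With the replicate number as a block, which pairs same-numbered cultures across genotypes, limma called 2 members, *Rpl36a* lower and *Rps9* (dimmer probe) higher, and 1.58% of all genes. Fibroblast markers were higher beside these differences, with 5 of the 6 measured above the median of all genes and a median of 0.47, and the raw background was higher on the Ts-NT arrays as given above. Their part in the ribosomal protein values was not tested.

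**Figure D2:**
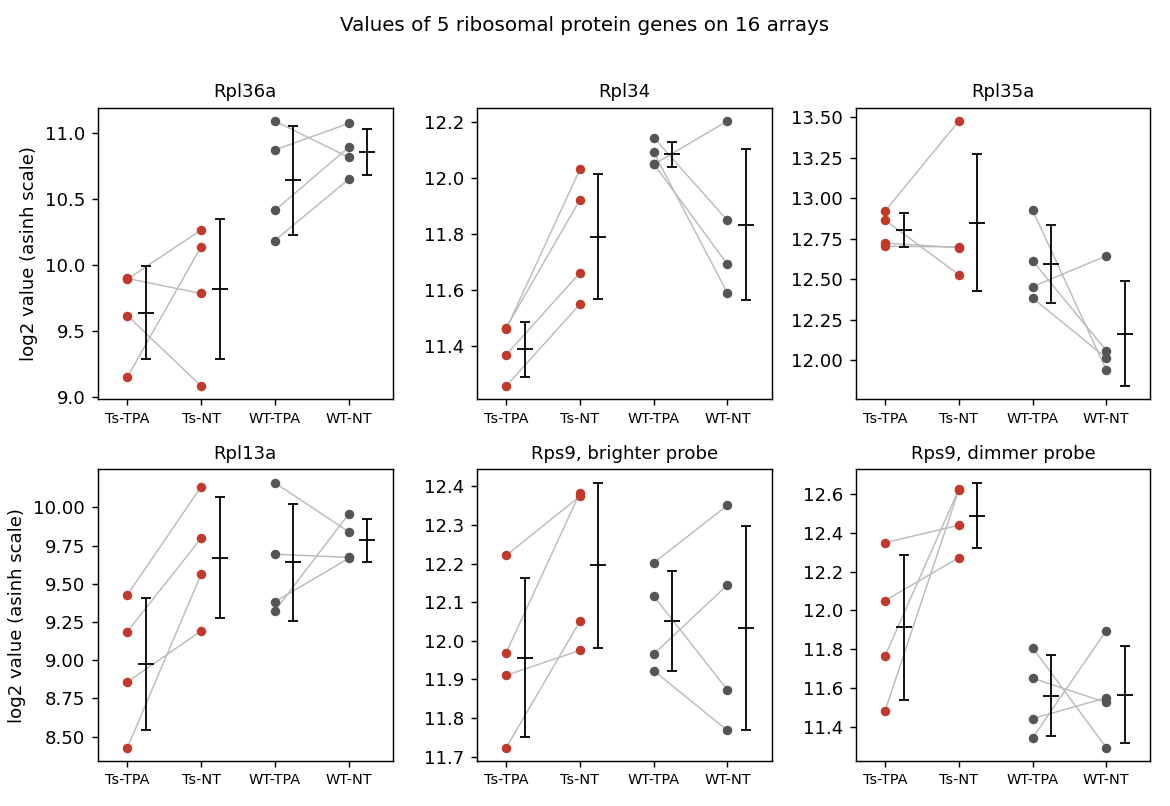
Log2 values (y axis, arsinh scale) of *Rpl36a*, *Rpl34*, *Rpl35a*, *Rpl13a* and both measured probes of *Rps9* on the 16 arrays by group; points are arrays (red Ts, grey WT), grey lines join TPA and untreated arrays of the same replicate number, and the bars to the right are means ± SD (n = 4). *Rpl36a* lies lower on all Ts than on all WT arrays of the same treatment, and *Rps9* separates Ts-NT from WT-NT on its dimmer probe and not on the brighter one.

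After 12 h of TPA, the genotypes were compared again. The member median of Ts-TPA against WT-TPA was -0.01, with 25 of 52 genes above the median of all genes. No member was called (0 of 52), and 1 of 6063 genes was called over the array (0.0165%). At an unadjusted p below 0.05, 0 members were higher and 13 lower in Ts-TPA, against 1.62% and 15.8% of all genes, but after quantile normalization, with the median gene at -0.0037, 10 were higher and 5 lower, against 4.26% and 6.66% of all genes.

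*Rpl36a* was again the lowest member, with 9.89, 9.15, 9.90 and 9.62 in Ts-TPA and 11.09, 10.87, 10.18 and 10.41 in WT-TPA. The groups did not overlap, as in untreated cells. Its difference was -0.80 ± 0.27 (limma adjusted p = 0.137, and 0.0471 with the replicate block). The test used the same cultures as the untreated comparison, so that it is not an independent one.

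*Rpl34*, of the large subunit, had 11.46, 11.37, 11.47 and 11.26 in Ts-TPA and 12.05, 12.14, 12.05 and 12.09 in WT-TPA. This was a narrow group on each side with a clear gap between them. The difference was -0.50 ± 0.18 (adjusted p = 0.137, and 0.0469 with the replicate block), against 0.11 ± 0.18 in untreated cells. *Rpl10*, the protein that completes the large subunit near the site of peptide transfer, had 14.35, 14.45, 14.45 and 14.21 in Ts-TPA and 14.88, 14.87, 15.03 and 14.92 in WT-TPA. It too was lower on every Ts-TPA array, and differed by -0.36 ± 0.16 (adjusted p = 0.145).

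Small subunit genes with the lowest p were *Rps25*, which differed by -0.59 ± 0.25 (adjusted p = 0.192), and *Rps4x*, an X-linked gene, which differed by -0.34 ± 0.18 (adjusted p = 0.205). *Rps6* differed by -0.25 ± 0.18 (adjusted p = 0.268), close to its untreated value, and now without overlap. By brightest probe, 13 members (*Rpl10*, *Rpl12*, *Rpl23a*, *Rpl27*, *Rpl27a*, *Rpl34*, *Rpl36a*, *Rpl41*, *Rpl9*, *Rps25*, *Rps3*, *Rps4x* and *Rps6*) were lower on every Ts-TPA array than on every WT-TPA array, and 0 were higher, against 6.33% and 0.775% of all genes. That count uses values from which the median of all genes, -0.20, was not removed.

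At the other end, *Rpl19* had 10.96, 11.05, 11.41 and 11.07 in Ts-TPA and 10.996, 10.42, 10.99 and 10.84 in WT-TPA. Of the Ts-TPA arrays, replicate 1 alone was within the WT-TPA range. The difference was 0.51 ± 0.20 (adjusted p = 0.481), the highest of any member. The stalk gene *Rplp0* gave -0.12 ± 0.19 and 0.64 ± 0.22 on its brighter and dimmer probe, and *Rplp1* -0.15 ± 0.18. *Rpl5*, *Rps14*, *Rps19*, *Rpl22* and *Rps27l* lay between -0.14 and 0.15.

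With the replicate block, limma called 2 members lower in Ts-TPA, *Rpl34* and *Rpl36a*, and 2.33% of all genes. Across the 52 members, the 2 genotype differences (untreated and with TPA) had a Pearson correlation of 0.70, against 0.55 over all 6063 genes and 0.56 over the 564 other bright genes. By rank (Spearman) it was 0.59, against 0.51 over all genes. The sign of the 2 differences was the same in 35 of 52 members, near the share over all genes (67.9%). The same 8 cultures gave both differences, and genes are not independent replicates.

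**Figure D3:**
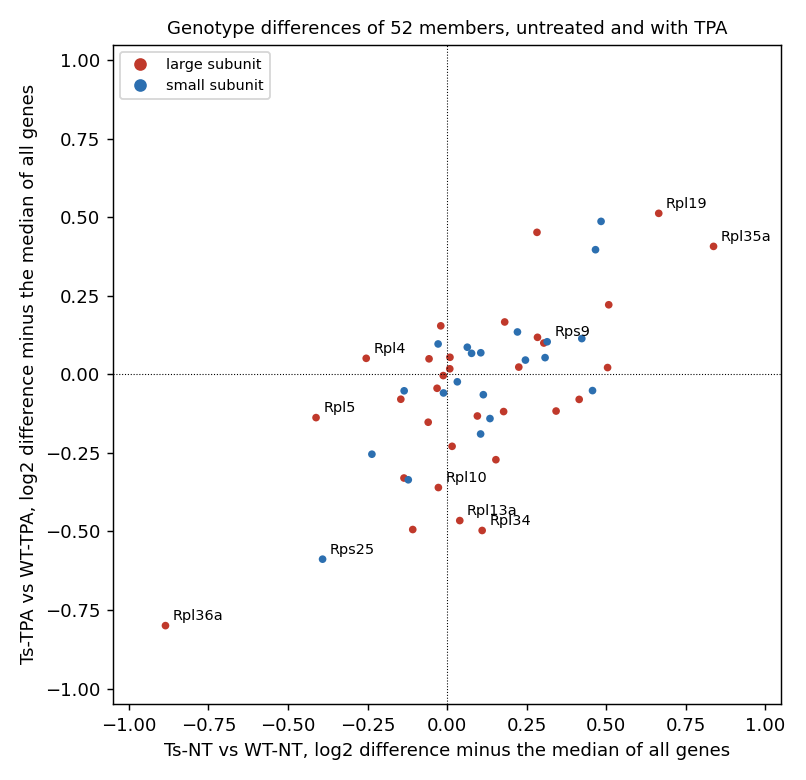
Genotype difference of each of the 52 members in untreated cells (x axis) against that after TPA (y axis), both in log2 relative to the median of all genes; red points are large and blue points small subunit genes. *Rpl36a* lies lowest on both axes (-0.89 and -0.80), and *Rpl35a* and *Rpl19* lie at the upper right.

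The effect of TPA was tested within each culture. In Ts cells, the member median of Ts-TPA against Ts-NT was -0.06, with 15 of 52 genes above the median of all genes. No member was called (0 of 52), whereas 64 of 6063 genes were (1.06%). At an unadjusted p below 0.05, 0 members were higher and 3 lower with TPA, against 5.29% and 10.1% of all genes. This too moved with the scaling, since 11 were lower on the authors' values (9.48% of all genes), 6 after quantile normalization (8.11%) and 1 with neqc (8%). The lowest was *Rpl13a*, a large subunit protein that in human monocytes also leaves the ribosome to silence inflammatory mRNAs.

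*Rpl13a* had 9.19, 8.43, 9.43 and 8.86 in Ts-TPA and 9.80, 9.56, 10.13 and 9.19 in Ts-NT. It was lower with TPA in each of the 4 Ts cultures. The difference was -0.59 ± 0.21 (adjusted p = 0.193). The brighter *Rplp0* probe differed by -0.34 ± 0.20 and the dimmer *Rps9* probe by -0.47 ± 0.24 (adjusted p = 0.382 and 0.343), both lower in all 4 Ts cultures. The other probe of each gene showed less. The dimmer *Rplp0* probe was at -0.03 ± 0.23 and higher in 2 of 4 cultures. The brighter *Rps9* probe was at -0.14 ± 0.20 (adjusted p = 0.659). In all, 15 members were lower with TPA in every Ts culture and 0 higher by brightest probe, against 14.6% and 7.13% of all genes. Here the median of all genes, -0.10, was left in.

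In WT cells, the member median of WT-TPA against WT-NT was 0.10, with 36 of 52 genes above the median of all genes, and it was -0.016 after quantile normalization. No member was called (0 of 52), whereas 161 of 6063 genes were (2.66%), and 0 members were higher and 2 lower at an unadjusted p below 0.05, against 9.27% and 12.5% of all genes. After quantile normalization 0 were higher and 8 lower (10.1% and 12.2% of all genes), on the authors' values 6 higher and 5 lower (10.3% and 11.2%), and with neqc 0 higher and 1 lower (10% and 11.2%). *Rpl4* had 9.40, 9.42, 9.46 and 9.35 in WT-TPA and 10.06, 9.61, 10.001 and 9.79 in WT-NT. It was lower with TPA in all 4 WT cultures, by -0.40 ± 0.17 (adjusted p = 0.19). *Rpl35a* was the highest member at 0.49 ± 0.21 (adjusted p = 0.302), higher in 3 of 4 cultures. By brightest probe, 2 members (*Rpl10* and *Rpl7a*) were higher and 6 lower in every WT culture, against 11.1% and 16.4% of all genes.

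Over all 8 cultures together, ribosomal protein mRNAs moved little with TPA. The member median of TPA-treated against untreated cells was 0.02, with 28 of 52 genes above the median of all genes, and it lay at -0.02 with neqc, -0.04 after quantile normalization and -0.01 on the authors' values. No member was called (0 of 52), whereas 648 of 6063 genes were (10.7%), 267 of them higher and 381 lower. At an unadjusted p below 0.05, 0 members were higher and 4 lower, against 10.4% and 18.4% of all genes, and 8, 6 and 2 were lower after quantile normalization, on the authors' values and with neqc, against 15.7%, 16.2% and 14.9%. All 52 members had a 95% confidence interval within 1 log2 unit of the median gene, against 93.9% of all genes, and 44 of 52 (84.6%) had one within 0.5, against 47.7% of all genes.

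*Rpl13a* had the lowest difference and the lowest adjusted p, -0.34 ± 0.14 and 0.0847 by limma, and was lower in 6 of 8 cultures. In the WT cultures its values were 9.32, 9.38, 9.69 and 10.16 with TPA and 9.95, 9.67, 9.67 and 9.84 without. WT replicates 1 and 2 were lower with TPA and replicates 3 and 4 higher, whereas all 4 Ts pairs were lower with TPA, and the treated and untreated arrays overlapped in both genotypes. On the authors' values its adjusted p was 0.0475.

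*Rpl31*, a large subunit protein at the mouth of the exit tunnel, had 13.76, 13.75, 13.69 and 13.78 in Ts-TPA and 14.11, 14.08, 14.34 and 14.04 in Ts-NT, and 14.00, 13.86, 13.80 and 13.72 in WT-TPA and 14.17, 13.90, 14.07 and 13.82 in WT-NT. It was lower with TPA in 8 of 8 cultures. The difference was -0.20 ± 0.12 (adjusted p = 0.164, but 0.0243 after quantile normalization and 0.0357 on the authors' values). These values are those of its brighter probe. The dimmer *Rpl31* probe, also detected on all 16 arrays, differed by -0.04 ± 0.13 (adjusted p = 0.63) and was higher in 2 of 8 cultures. *Rpl35* was also lower in 8 of 8 cultures, at -0.06 ± 0.11 (adjusted p = 0.496). These 2 members, and 0 in the other direction, compare with 5.53% and 3.3% of all genes. The median of all genes, -0.08, was left in. It was larger than the drop of *Rpl35* in WT replicate 4, from 13.90 untreated to 13.89 with TPA.

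*Rpl4* and *Rpl22*, a large subunit protein with the relative *Rpl22l1*, differed by -0.25 ± 0.14 and -0.24 ± 0.13 (adjusted p = 0.164 and 0.15), each lower in 7 of 8 cultures. *Rpl22l1* itself differed by 0.51 ± 0.25 (adjusted p = 0.312). Among small subunit genes, *Rps12* had the lowest difference, -0.17 ± 0.12 (adjusted p = 0.215), and *Rps25* the highest of all members, 0.28 ± 0.17 (adjusted p = 0.496). *Rps6*, *Rps14*, *Rps19* and *Rps27l* lay between -0.03 and 0.04, and the stalk genes *Rplp1* and *Rplp0* at 0.02 ± 0.13 and -0.20 ± 0.14.

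**Figure D4:**
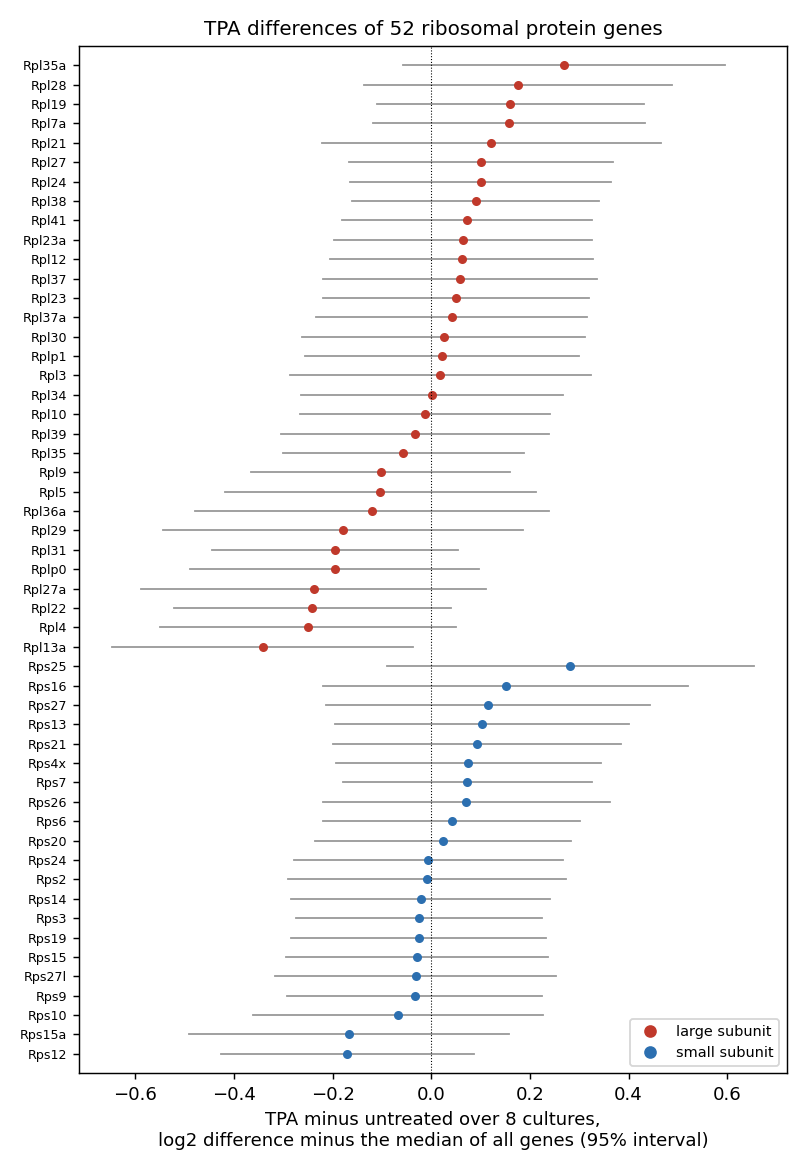
Difference of TPA-treated against untreated cells over 8 cultures (x axis, log2 relative to the median of all genes) for each of the 52 measured members (rows), with 95% confidence intervals; red points are large and blue points small subunit genes. Estimates run between -0.34 (*Rpl13a*) and 0.28 (*Rps25*), and no interval reaches 1 log2 unit.

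The difference between the TPA responses of the genotypes was tested directly. The member median of the Ts response minus the WT response was -0.17, with 14 of 52 genes above the median of all genes, against a median of -0.05 for the other bright genes. The size depended on the scaling, since it was -0.17 on the authors' values but -0.012 with neqc and -0.00997 after quantile normalization. No member was called (0 of 52, lowest adjusted p 0.9997), nor was any other gene (0%), and 0 members were higher and 2 lower at an unadjusted p below 0.05, against 1.78% and 2.82% of all genes. On the authors' values 10 were lower, after quantile normalization 4 and with neqc 0, against 3.3%, 2.41% and 2.52% of all genes. The 2 were *Rpl34*, at -0.60 ± 0.25, and *Rpl12*, a protein at the base of the stalk, at -0.49 ± 0.25.

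*Rpl34* was lower with TPA in each of the 4 Ts cultures and higher in 3 of 4 WT cultures. *Rpl12* had 12.84, 12.88, 12.57 and 12.77 in Ts-TPA and 13.34, 13.03, 12.87 and 12.97 in Ts-NT, and 12.90, 12.89, 13.11 and 13.29 in WT-TPA and 12.97, 12.75, 12.76 and 12.69 in WT-NT. It followed the same pattern of 4 lower Ts and 3 higher WT cultures. Across the 52 members, the responses of the genotypes had a Pearson correlation of 0.21, against 0.69 over all genes and 0.77 over the other bright genes. From the 25th to the 75th percentile, member responses spanned only 0.19 in Ts and 0.23 in WT, against 0.41 and 0.43 over all genes. Their median standard errors were 0.21 and 0.18, so that the low correlation does not show opposed responses. The responses rest on different cultures, and genes are not independent replicates.

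As a group, the members' level per array was taken as the median over the 52 members of each gene's deviation from its own mean over the 16 arrays, relative to the median of all genes. It was -0.22, 0.07, 0.14 and -0.05 in Ts-TPA, 0.05, 0.02, 0.21 and 0.11 in Ts-NT, -0.06, -0.14, 0.12 and 0.10 in WT-TPA, and -0.07, -0.16, -0.04 and -0.01 in WT-NT. The Ts-NT arrays lay above the WT-NT arrays, while the TPA-treated groups overlapped. By culture, TPA minus untreated was -0.27, 0.06, -0.07 and -0.16 in Ts and 0.01, 0.02, 0.17 and 0.11 in WT. With neqc it was -0.20, -0.23, -0.10 and 0.01 in Ts and -0.09, -0.04, 0.03 and 0.01 in WT, so that the sign turned in Ts replicates 2 and 4 and WT replicates 1 and 2. The separation of Ts-NT from WT-NT held on this scale and not on the other 3, since with neqc Ts-NT replicate 4 (0.0062) was below WT-NT replicate 1 (0.063), and an overlap was present with quantile normalization and on the authors' values too.

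Members varied less between replicates than other genes, with a median within-group SD of 0.20 against 0.36 over all genes and 0.26 over the other bright genes. *Rpl41*, *Rpl38* and *Rpl10* had the smallest SD (0.10, 0.11 and 0.11), and *Rpl36a*, *Rps15a* and *Rps16* the largest (0.39, 0.37 and 0.37). The median correlation between pairs of members, after removal of group means, was 0.18, against 0.05 for pairs of other bright genes, but their first principal component held 29.1% of the variance, against 34.7% in the other bright genes. These correlations are over 16 arrays and share each array's scaling.

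The genes that build the ribosome, rather than belong to it, were read from lists of named genes. In the ribosome assembly list, 50 of 71 genes were measured, and over 8 cultures 0 rose and 14 fell with TPA by limma, with a median of -0.27 and 5 of 50 above the median of all genes, where 6.28% of all genes fell. *Rrp12*, an export factor of both subunits, fell by 0.67 ± 0.14 relative to the median gene (adjusted p = 0.00692). *Nob1*, the nuclease that finishes the small subunit RNA, fell by 0.47 ± 0.12 (adjusted p = 0.0113), and *Fbl*, the fibrillarin that methylates ribosomal RNA, fell by 0.47 ± 0.14 (adjusted p = 0.0255). *Rrp1b*, a nucleolar processing factor, was called with an adjusted p of 0.00402 on its most significant probe and fell by 0.82 ± 0.24 on its brightest.

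The number of these calls was less stable than the median. Without each culture in turn, 3 to 14 assembly genes fell (3 without WT replicate 2, WT replicate 3 or Ts replicate 2, 5 without WT replicate 4, 7 without Ts replicate 3, 9 without WT replicate 1 or Ts replicate 4, and 14 without Ts replicate 1), and the median was -0.33 to -0.19. The calls over all genes moved too, to between 307 without WT replicate 4 and 716 without Ts replicate 1. With neqc, quantile normalization and the authors' values 8, 12 and 10 fell, with medians of -0.27, -0.15 and -0.15. Within genotypes, 0 assembly genes were called in Ts (median -0.28) and 2 fell in WT (median -0.28), *Ltv1* and *Heatr1*, where 1.07% of all genes fell. *Ltv1* was detected on 6 of 16 arrays, with means of 5.40 in Ts-TPA, 5.49 in Ts-NT, 5.52 in WT-TPA and 6.60 in WT-NT. It may have passed the detection filter only through WT-NT, so that its fall is weak evidence. *Heatr1* was called on its dimmer probe alone (limma adjusted p = 0.0435, against 0.131 on its brightest). Genotype comparisons called 0, with medians of -0.11 in both.

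Among subunits and factors of RNA polymerases I and III, which transcribe ribosomal and other small RNAs, 20 of 33 were measured, and 1 fell with TPA over 8 cultures, *Polr2h*, a subunit shared by all nuclear RNA polymerases, by 0.38 ± 0.12 (adjusted p = 0.0294). The median of this list was -0.22, and 1 of 20 is below the 6.28% of all genes that fell. At an unadjusted p below 0.05 by limma, however, 1 of the 20 was higher and 10 lower, against 10.4% and 18.4% of all genes. Translation factors (29 of 40 measured) had a median of -0.05, and regulators of ribosomal protein synthesis such as *Myc* and *Mtor* (11 of 25 measured) one of -0.0033, with 0 called in either. Ribosomal proteins and relatives outside the symbol pattern (6 of 9 measured, among them *Fau* and *Rps3a1*) had 0 called in any comparison and a median of 0.16. The difference between lists was not tested.

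**Figure D5:**
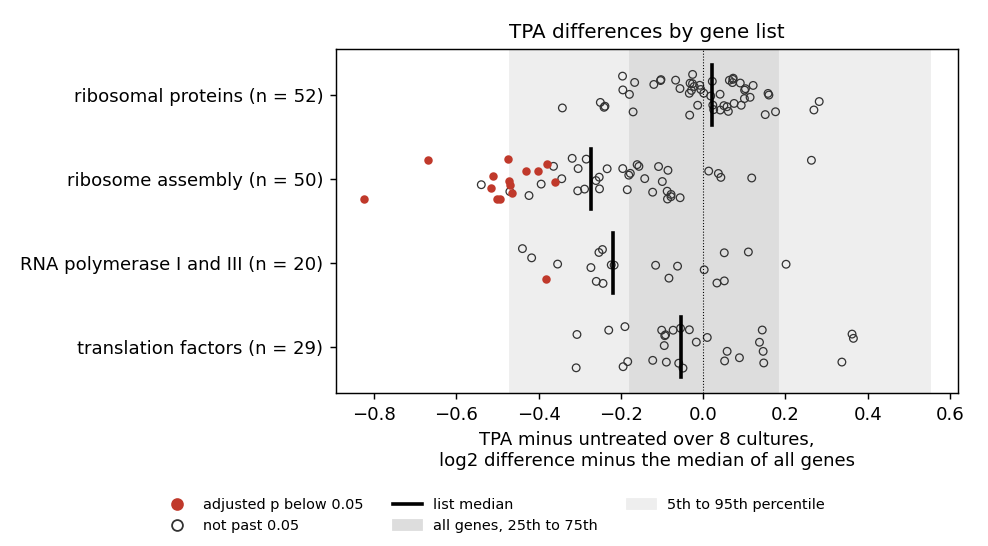
Difference of TPA-treated against untreated cells over 8 cultures (x axis, log2 relative to the median of all genes) for 4 gene lists (rows); filled red points are genes with a probe at an adjusted p below 0.05, open points do not, black bars are list medians, and grey bands span the 25th to 75th and 5th to 95th percentiles of all genes. The 52 ribosomal proteins center on 0.02 with 0 called, and the 50 assembly genes center on -0.27 with 14 called.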

How the data were processed

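The authors hybridized total RNA to Illumina MouseRef-8 v2.0 arrays. The deposited table holds raw signal intensity and a detection p-value per probe and array, and the second table holds log2-like values that the authors made by variance stabilizing normalization (vsn), used here as an alternative. Gene symbols came from the platform annotation (23978 probes with 1 symbol, 0 with several, 1719 with none), pseudogenes and chromosomes from RefSeq.

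Raw intensities were normalized by an own implementation of the vsn model in R 4.3.3 (an offset and a factor per array, robust share 0.9, 7 rounds, 10 strata), since the package was not installed. It correlated with the authors' values at 0.958 to 0.964 per array. Probes were kept when 4 or more of the 8 Ts or of the 8 WT arrays had a detection p of 0.01 or less, for a gene the brightest kept probe gave the value, and limma 3.58.1 gave p-values (Benjamini-Hochberg, threshold 0.05). Genotype contrasts came from 1 model of the 4 group means over 16 arrays, TPA was paired by culture, and the interaction used all 16 arrays. The statistics were tested on simulated data. Array number limits the precision.

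Replicate numbers came from the labels. Deviations of same-numbered arrays correlated at 0.29 to 0.52 between Ts-NT and WT-NT and at 0.24 to 0.57 between Ts-TPA and WT-TPA, so the numbers were taken to pair arrays across genotypes, though no label says what they share. Within genotypes the correlation was 0.07 to 0.31 in Ts and 0.19 to 0.45 in WT, lowest for Ts replicate 4, and pairing by culture follows the methods. Both the main genotype fit and the fit with the block treat the TPA-treated and untreated arrays of a culture as separate. That the cultures are separate animals rests on the statement on pups. For TPA, p-values measure the spread between cultures of the change with TPA. For genotype, p-values of the main fit measure the spread between arrays within the 4 groups. No 2 arrays correlated above 0.9694, and none were counted as duplicates. No slide or scan date was given in the sources used here, so slides were not tested as a batch.

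Members, lists and alternatives were chosen with earlier results of these data known. Members named in the text were drawn, per comparison, from the 5 with the lowest p, the highest and lowest, and those fixed by role. Not all of these were reported in each comparison. Left out were, among others, the highest member for TPA in Ts (*Rps16*, 0.19 ± 0.27) and for the interaction (*Rpl4*, 0.31 ± 0.28). Members not detected and up to 4 genes of each other list were also named. Members named for groups that did not overlap, and *Rpl24*, *Rpl35*, *Rpl7a*, *Rpl41*, *Rpl38*, *Rpl36al* and *Rpl22l1*, were added after their values were seen. Pyrimidine stretches were searched in Python 3.11.15 with pandas 2.3.3, and plots drawn with matplotlib 3.10.9.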

Additional observations from a re-analysis of the deposited data

Results flagged for a closer look

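In 112 checks of single groups of 4 arrays for the named members, 5 had 1 array far from the other 3, where chance gives about 1 in 20. *Rpl35a* in WT-NT replicate 1 was at 12.6, against 11.9 to 12.1 in the other WT-NT arrays. *Rplp0* in WT-TPA replicate 1 was at 9.65, against 10.2 to 10.3. *Rplp1* in Ts-TPA replicate 2 was at 15.5, against 15.02 to 15.06. *Rpl22* in Ts-NT replicate 1 was at 7.89, against 7.45 to 7.49. *Rps27l* in WT-NT replicate 2 was at 12.3, against 12.6 in each of the others. All are log2 values of the brightest probe.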

How the results depend on the processing

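The count of called members was 0 in each of the 6 comparisons and stayed 0 without any single array or culture (0 to 0). For Ts-NT vs WT-NT it was 1 after quantile normalization and on the authors' values (0.066% and 0.099% of all genes called), 2 with the replicate block (1.58%), and, with alternatives added after seeing the data, 5 with the replicate block and quantile normalization (*Rpl19*, *Rpl35a*, *Rps15*, *Rps24* and *Rps9*, all higher; 9.62% of members and 0.973% of all genes), 1 with the block and neqc (0.297%) and 2 with the block and the authors' values (0.478%). For Ts-TPA vs WT-TPA it was 2 with the replicate block (2.33%) and 1 with the block and the authors' values (0.379%). For TPA over 8 cultures it was 1 after quantile normalization (*Rpl31*; 12.2%) and 2 on the authors' values (*Rpl13a* and *Rpl31*; 11.7%). Without the pairing by culture the TPA comparisons also called 0 members.

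Without any detection filter the member median was -0.021 for Ts-NT vs WT-NT and -0.14 for Ts-TPA vs WT-TPA; the median of all genes then includes undetected ones. The median for TPA in WT was -0.016 after quantile normalization, and that of the interaction -0.012 with neqc and -0.00997 after quantile normalization. The cause was not tested. Leaving out 1 array or culture gave medians of 0.08 to 0.12 for Ts-NT vs WT-NT, -0.07 to 0.05 for Ts-TPA vs WT-TPA (positive without Ts-TPA replicate 1), -0.10 to -0.01 for TPA in Ts, 0.04 to 0.12 for TPA in WT, -0.01 to 0.04 over 8 cultures and -0.18 to -0.13 for the interaction. Among the values of named members under alternatives, 1209 kept direction and side of the threshold, 10 passed the threshold, 0 called values reversed and 80 uncalled values changed sign. Signal over background limits *Rpl21*, *Rps15a* and the 8 members not measured.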
